A study of Mus musculus with 16 samples.

Results

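The basement membrane genes Col4a1, Col4a2, Col15a1, Col18a1, Lama2, Lama4, Lamb1, Lamc1, Nid1 and Hspg2 were followed in the brown adipose tissue (BAT) of mice with and without Gdf15 in their brown adipocytes. They are 10 of the 49066 gene symbols in the data and were read as the sum of the transcripts of each symbol. They were chosen by name as components of basement membranes, with earlier results of these data known. Bulk RNA sequencing covered 16 libraries, 1 per mouse, in 4 groups of 4 mice defined by sex and genotype. All mice were C57BL6/J, carried floxed Gdf15 (Gdf15 fl/fl), received a high-fat diet (HFD) for 12 weeks and were 18 weeks of age. The KO mice also carried Ucp1-Cre, a transgene driven by the promoter of a gene of thermogenic adipocytes, so that the other cells of BAT kept Gdf15, and the WT mice were littermates without Cre. Expression is given as TPM, the share of a library's transcripts that a gene takes, which is corrected for transcript length and sums to the same total in every library.

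A basement membrane is a thin sheet of matrix that surrounds each adipocyte and lines the capillaries of adipose tissue. Laminin trimers, each made of an alpha, a beta and a gamma chain, bind receptors on the cell surface and form a first network, and collagen IV forms a second one, which is crosslinked and gives the sheet its strength. Nidogen and the heparan sulphate proteoglycan perlecan link both networks, and collagens XV and XVIII join the sheet to the tissue around it. BAT is densely supplied with capillaries, and its basement membranes are made by adipocytes, endothelial cells, mural cells and fibroblasts together. In bulk tissue, fewer cells of a type and less RNA per cell cannot be told apart.

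Col4a1 and Col4a2 were the most abundant of these genes and varied together from mouse to mouse. Averaged over both sexes, both were higher in KO than in WT mice, and they were the only ones of the 10 genes that passed the adjusted threshold. Both calls were lost with any 1 of 8 of the 16 libraries left out, with no TPM minimum, and with the library-name prefix or the replicate number in the fit. The laminin beta chain Lamb1 and the collagen Col18a1 had KO minus WT values of opposite sign in males and females, although the difference between the sexes did not pass the adjusted threshold for either gene. In females, the KO minus WT values of Col15a1, Lama2, Lama4, Lamc1 and Hspg2 were smaller or of the other sign when short annotated transcripts from the end of these genes were left out.

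The promoters of Col4a1 and Col4a2 are shown because these genes lie head to head. The part of this arrangement in their expression was not tested. In the RefSeq annotation of GRCm38.p6 their start sites, on opposite strands, are 21 bases apart. Windows of 300 bases, from 250 before to 50 after each start site, lay at chr8:11312555-11312854 on the plus strand for Col4a2 and at chr8:11312777-11313076 on the minus strand for Col4a1, and shared 78 bases. Of 27025 genes with such a window, 5.58% had a start site of another gene on the opposite strand within 100 bases. The sequences are 5′ to 3′ on the strand of the gene, and capitals mark GGGCGG (the GC box) and CCAAT (the CCAAT box) on either strand.
Col4a2: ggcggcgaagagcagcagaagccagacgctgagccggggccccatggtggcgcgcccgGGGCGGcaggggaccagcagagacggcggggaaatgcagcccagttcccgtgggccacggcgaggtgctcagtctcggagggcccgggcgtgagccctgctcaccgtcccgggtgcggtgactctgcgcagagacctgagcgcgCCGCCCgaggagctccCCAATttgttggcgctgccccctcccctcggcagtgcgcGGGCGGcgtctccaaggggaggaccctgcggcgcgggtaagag
Col4a1: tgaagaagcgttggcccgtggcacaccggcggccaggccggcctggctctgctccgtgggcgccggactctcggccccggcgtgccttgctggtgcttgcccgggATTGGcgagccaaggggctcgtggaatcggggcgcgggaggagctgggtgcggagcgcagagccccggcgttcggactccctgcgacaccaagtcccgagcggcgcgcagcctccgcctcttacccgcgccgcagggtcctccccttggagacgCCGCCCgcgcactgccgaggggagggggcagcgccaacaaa
The Col4a2 window held 3 GC boxes and 1 CCAAT box, and the Col4a1 window held 1 of each. The GC box of the Col4a1 window lies in the shared bases and is also counted among the 3 of the Col4a2 window. The Col4a2 start site is base 251 of the Col4a2 window and the Col4a1 start site is base 272. Neither window held TATAAA. Over all 32851 windows, 35.7% held GGGCGG, 37.4% held CCAAT and 13.6% held TATAAA on either strand, and a match describes letters and not a site in use.

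Col18a1 has 2 annotated start regions, which are shown because the most abundant deposited transcripts of this gene start at one or the other. Both windows are on the minus strand of GRCm38.p6, the upstream one at chr10:77166481-77166780 and the downstream one at chr10:77113656-77113955.
Col18a1 upstream: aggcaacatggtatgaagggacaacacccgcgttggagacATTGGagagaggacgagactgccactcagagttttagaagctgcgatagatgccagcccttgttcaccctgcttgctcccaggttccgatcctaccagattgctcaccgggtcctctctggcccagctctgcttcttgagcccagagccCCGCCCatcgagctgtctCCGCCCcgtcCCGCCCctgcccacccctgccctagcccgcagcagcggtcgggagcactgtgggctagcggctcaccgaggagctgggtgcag
Col18a1 downstream: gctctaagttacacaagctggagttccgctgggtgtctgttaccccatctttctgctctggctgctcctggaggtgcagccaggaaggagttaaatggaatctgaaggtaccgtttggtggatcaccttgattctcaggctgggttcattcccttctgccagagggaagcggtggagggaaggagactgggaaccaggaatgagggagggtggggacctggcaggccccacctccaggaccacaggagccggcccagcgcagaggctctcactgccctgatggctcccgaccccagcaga
The upstream window held 3 GC boxes and 1 CCAAT box, and the downstream window held no match to any of these motifs. The labels name GRCm39 as the build used for quantification, so these coordinates describe the reference annotation and not the deposited values. Windows were found for 8 of the 10 genes.

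Gdf15 itself was measured first as a check of the labels. It stood at 0.368, 0.690, 1.55 and 3.81 TPM in male WT mice and at 0.0915, 0.0801, 0.255 and 0.272 TPM in male KO mice, and the groups did not overlap (p = 0.0286 by an exact permutation test, two-sided, which can give no smaller p for 4 against 4 mice). In female WT mice it stood at 0.0622, 0.311, 0.1703 and 0.290 TPM, and in female KO mice it was listed at 0 in 3 libraries and at 0.0794 TPM in the other (exact p = 0.0571). Between 34.5 and 59.8% of all TPM fell on mitochondrially encoded transcripts. The library of female WT 4 stood apart, with 17.7% of its TPM on identifiers that matched no gene (16.5% on 1 of them), against 0.333 to 0.480% in the other 15 libraries, and with the lowest mitochondrial share. Without it the female log2 fold change described below had a median over the 10 genes of 0.47, as with it, and that of Col15a1 was 0.42 in place of 0.24, while 3 genes in place of 0 passed the adjusted threshold in females, none of them among the 10. TPM do not reveal how many reads a library had, so the sequencing depth is unknown here, and the errors given are the spread between mice.

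All 10 genes had a TPM above 0 in all 16 libraries. The type IV collagen chains led, with a mean TPM over the 16 libraries of 119.7 for Col4a1 (SD 36.5) and 63.5 for Col4a2 (SD 16.9), followed by Hspg2, which encodes perlecan, at 47.5 (SD 13.1). This order and the step from Hspg2 to Lama4 held in all 16 libraries for sums over all transcripts of a gene. The full-length transcripts Col4a1-201 and Col4a2-201 had a mean TPM of 60.5 and 62.6. Their ratio ran from 0.736 to 1.14, so the lead of Col4a1 did not hold for this pair of transcripts in all libraries. Lama4, the laminin alpha chain of vessels and adipocytes, had a mean TPM of 25.0 (SD 6.44), Nid1, which encodes nidogen, of 20.03 (SD 5.28), and Lamc1, the common laminin gamma chain, of 17.9 (SD 2.97). Nid1 was above Lamc1 in 10 of 16 libraries, so that these neighbours did not differ beyond their spread. Col15a1 had a mean TPM of 15.3 (SD 4.20) and Lamb1, a laminin beta chain, of 14.4 (SD 7.42), with Col15a1 above Lamb1 in 11 of 16 libraries. Col18a1, whose C-terminal fragment is endostatin, stood at 6.14 (SD 2.48), and Lama2, the laminin alpha chain of muscle and nerve, was lowest at 2.89 (SD 0.609). Lamb1 varied most between libraries, by 6.85-fold from lowest to highest, and Lamc1 least, by 1.73-fold.

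**Figure D1:**
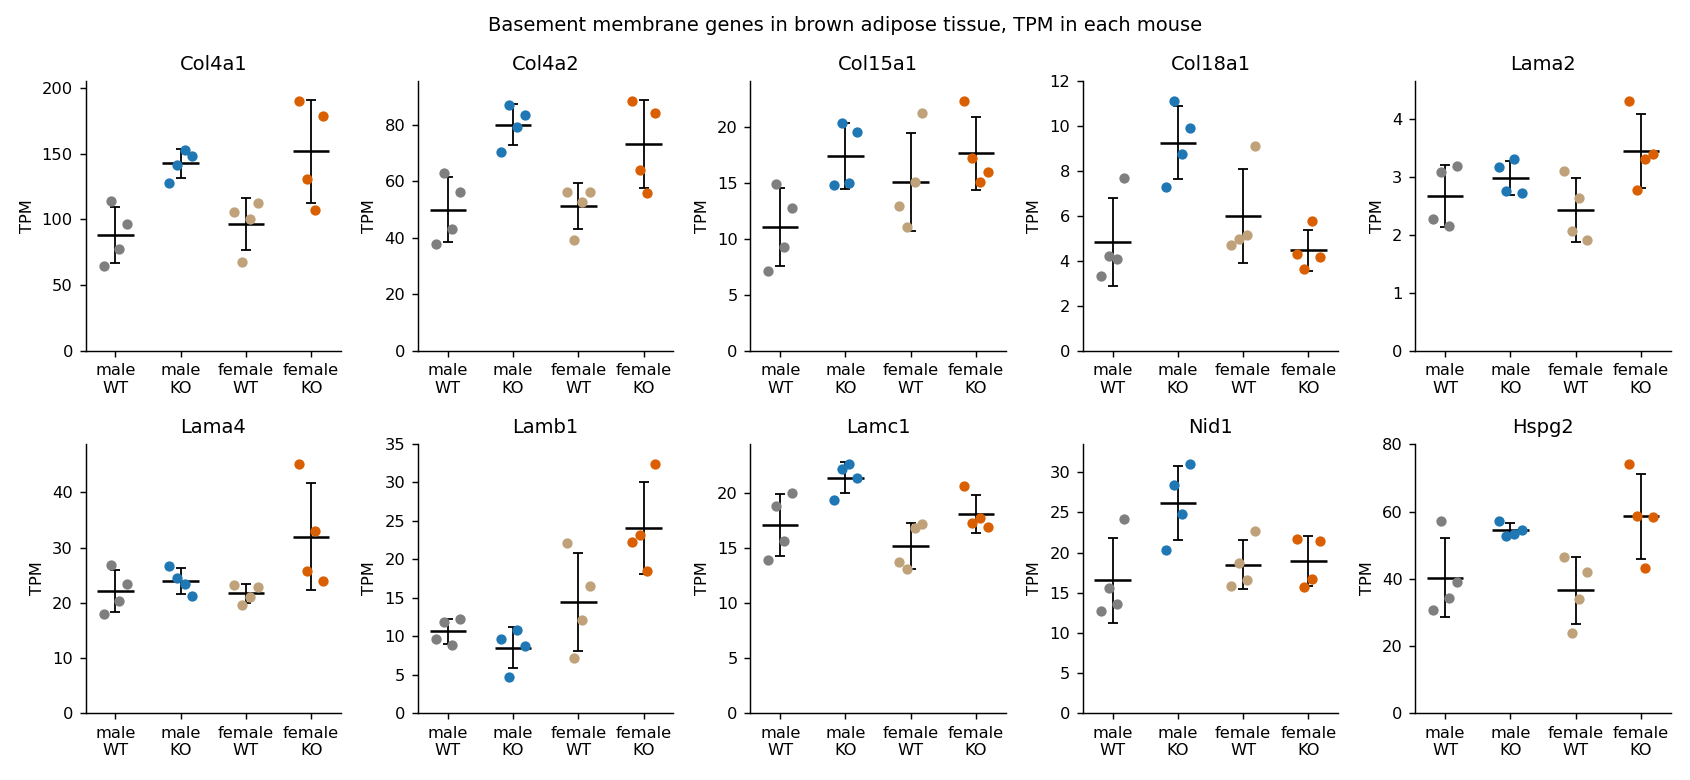
TPM of each basement membrane gene (vertical axes, 1 scale per gene, from 0) in the 4 groups, with 1 point per mouse, a bar at the mean and SD as error bars (n = 4). Col4a1 and Col4a2 have all 4 male KO mice above all 4 male WT mice, and Lamb1 spreads widest among the groups.

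Genotypes were compared within each sex, and as the mean of the KO minus WT values of both sexes, with limma on log2(TPM + 0.5). Because the total is fixed, a shift of many genes moves all others, and over all genes tested the log2 fold change had a median of 0.16 in males, 0.10 in females and 0.13 for the mean over both sexes. Each value below is to be read against these medians. In males 0 of the 10 genes passed the adjusted threshold of 0.05, as did 0.00821% of the 12177 genes tested, that is 1 gene. In females 0 of the 10 passed, as did 0 of the 12141 genes tested. For the mean over both sexes 2 of the 10 passed, beside 2.95% of the 12210 genes tested, and both of the 2 were higher. Of the 10, 7 were higher in male KO mice at an unadjusted p under 0.05, beside 17.7% of all genes tested, and 6 were higher in female KO mice, beside 11.6%. At the same threshold 0 were lower in males, beside 1.07%, and 0 in females, beside 5.46%. For the mean over both sexes 8 were higher, beside 21.4%, and 0 lower, beside 2.58%. Since the 10 genes were chosen with earlier results of these data known, these counts are descriptions only. The log2 fold change was above 0 for 9 of the 10 in males, beside 79.9% of all genes, and for 9 of the 10 in females, beside 62.7%, although Lama4 in males (-0.04) and Nid1 in females (-0.07) fell on the other side of 0 with scaling by the median of ratios. The median over the 10 genes was 0.57 in males and 0.47 in females.

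Col4a1, the alpha1 chain of collagen IV, had a TPM of 64.4, 113.8, 77.6 and 96.3 in male WT mice and of 127.8, 141.6, 153.2 and 148.2 in male KO mice. It had 105.4, 67.8, 100.3 and 112.1 in female WT mice and 190.1, 130.7, 107.2 and 178.9 in female KO mice. All male KO mice were above all male WT mice, and 3 of 4 female KO mice were above all female WT mice. Mean TPM was 62.1% higher in male KO and 57.4% higher in female KO mice. The log2 fold change was 0.72 (SE 0.17, adjusted p = 0.164) in males and 0.64 (SE 0.23, adjusted p = 0.247) in females, and the mean over both sexes rose by 0.68 (SE 0.15, adjusted p = 0.0313).

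Col4a2, the alpha2 chain that joins Col4a1 in the collagen IV trimer, had a TPM of 37.6, 62.7, 43.2 and 56.2 in male WT mice and of 70.2, 87.0, 79.0 and 83.3 in male KO mice. It had 56.3, 39.3, 52.6 and 56.3 in female WT mice and 88.4, 64.1, 55.8 and 84.0 in female KO mice. The male groups did not overlap, and the highest female WT mice lay above the lowest female KO mouse. Col4a1 and Col4a2 were the 2 of 10 genes whose male groups did not overlap with KO higher, beside 9.54% of all genes tested in males. The log2 fold change was 0.70 (SE 0.17, adjusted p = 0.164) in males and 0.50 (SE 0.19, adjusted p = 0.259) in females, and the mean over both sexes rose by 0.60 (SE 0.13, adjusted p = 0.0313). With any 1 of 8 libraries left out (male WT 1 or 3, male KO 2, 3 or 4, female WT 2, female KO 1 or 4) neither gene passed, with adjusted p-values of 0.0622 to 0.0733. The values without single libraries lay between 0.60 and 0.76 for Col4a1 and between 0.54 and 0.66 for Col4a2. With the prefix of the library name, whose meaning is not given, as a covariate, the values were 0.54 and 0.48 (adjusted p = 0.191 for both), and with no minimum on TPM the adjusted p was 0.084 for Col4a1 and 0.0763 for Col4a2.

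The multiplexin Col15a1 had a TPM of 7.15, 14.9, 9.29 and 12.8 in male WT mice and of 14.8, 20.3, 14.97 and 19.6 in male KO mice. In females the values were 12.98, 11.1, 15.1 and 21.2 in WT and 22.3, 17.2, 15.1 and 15.9 in KO mice. The groups overlapped in both sexes, with 3 of 4 male KO mice above all male WT mice. On the log2 scale the difference between KO and WT was 0.67 (SE 0.22, unadjusted p = 0.0148, adjusted p = 0.209) in males and 0.24 (SE 0.21, adjusted p = 0.527) in females.

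Col18a1 had a TPM of 3.30, 4.22, 4.10 and 7.68 in male WT mice and of 7.28, 11.1, 8.74 and 9.91 in male KO mice, so that 3 of 4 male KO mice were above all male WT mice. In females it had 4.71, 4.99, 5.14 and 9.09 in WT and 4.31, 3.64, 5.78 and 4.17 in KO mice, so that 3 of 4 female KO mice were below all female WT mice. The log2 fold change was 0.92 (SE 0.23, unadjusted p = 0.00342, adjusted p = 0.173) in males, the highest of the 10 genes, and -0.35 (SE 0.22, unadjusted p = 0.136) in females. The female value was -0.15 without female WT 4, the mouse with 9.09 TPM, whose library stood apart.

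Transcripts of Col18a1 start at both regions printed above, except Col18a1-205, which starts 93.2% of the way along the gene and took 6.39% of its TPM. Col18a1-202, whose first base lies 18 bases from the upstream start site in GRCm38, took 56.5% of the gene's TPM, and Col18a1-201, which starts 241 bases from the downstream start site, took 28.6%. In males Col18a1-202 had a mean TPM and SD over 4 mice of 2.87 ± 1.05 in WT and 5.12 ± 0.622 in KO mice, and Col18a1-201 of 1.41 ± 0.984 and 3.09 ± 1.001. In females Col18a1-202 had 3.12 ± 0.761 in WT and 2.76 ± 0.478 in KO mice, and Col18a1-201 had 1.64 ± 0.831 and 0.863 ± 0.705. Transcripts from both regions therefore had a higher mean in male KO mice and a lower mean in female KO mice. For Col18a1-202 the lower female mean rested on female WT 4, whose library stood apart. Its TPM was 2.68, 2.81, 2.73 and 4.26 in female WT and 3.33, 2.25, 2.95 and 2.52 in female KO mice. The share of Col18a1-202 did not differ beyond the spread in males (exact p = 0.686) or in females (exact p = 0.171).

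Of the laminin chains, Lamb1 had a TPM of 9.69, 11.8, 8.83 and 12.2 in male WT mice and of 9.70, 4.74, 10.9 and 8.75 in male KO mice. The female values were 22.1, 7.19, 12.1 and 16.6 in WT and 22.3, 23.1, 18.5 and 32.4 in KO mice. Lamb1 was the only one of the 10 genes with a log2 fold change below 0 in males, at -0.35 (SE 0.24, unadjusted p = 0.17, adjusted p = 0.423), where 0.79 in females (SE 0.32, unadjusted p = 0.0329, adjusted p = 0.266) was the highest value. Without male KO 2, the mouse with 4.74 TPM, the male value was -0.11.

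Lamc1, a gamma chain that pairs with Lamb1 or Lamb2, had a TPM of 13.9, 18.9, 15.6 and 19.97 in male WT and of 19.4, 22.1, 22.6 and 21.3 in male KO mice. Female mice had 13.7, 13.1, 16.8 and 17.1 in WT and 20.6, 17.2, 17.7 and 16.9 in KO mice. Lamc1 had 3 of 4 KO mice above all WT mice in each sex. Its log2 fold change was 0.33 in males (SE 0.13, unadjusted p = 0.0301, adjusted p = 0.236) and 0.25 in females (SE 0.13, unadjusted p = 0.0913, adjusted p = 0.351).

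Lama4 had a TPM of 18.03, 26.9, 20.3 and 23.4 in male WT and of 26.7, 24.6, 23.4 and 21.2 in male KO mice, which overlapped fully. In females it had 23.3, 19.6, 21.1 and 22.8 in WT and 45.2, 25.8, 33.0 and 24.0 in KO mice, and it was the 1 of 10 genes whose female groups did not overlap with KO higher, beside 4.9% of all genes tested in females. The KO minus WT difference on the log2 scale was 0.12 (SE 0.14) in males and 0.51 (SE 0.20, unadjusted p = 0.0299, adjusted p = 0.261) in females.

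Lama2 ranged from 2.16 to 3.19 TPM in male WT mice, from 2.73 to 3.31 in male KO mice, from 1.90 to 3.11 in female WT mice and from 2.78 to 4.31 in female KO mice. Its log2 fold change was 0.15 (SE 0.14) in males and 0.44 (SE 0.18, unadjusted p = 0.0352, adjusted p = 0.268) in females.

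Among the linkers, Nid1 had a TPM of 12.8, 15.5, 13.6 and 24.2 in male WT and of 20.4, 28.4, 24.8 and 31.1 in male KO mice. Female mice had 15.9, 18.7, 16.6 and 22.7 in WT and 21.7, 15.8, 16.7 and 21.5 in KO mice, which overlapped. Its log2 fold change was 0.67 in males (SE 0.21, unadjusted p = 0.0111, adjusted p = 0.203) and 0.03 in females (SE 0.16, unadjusted p = 0.858). Without mitochondrial transcripts the female value was -0.12.

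Hspg2 had a TPM of 30.9, 57.2, 34.3 and 39.1 in male WT and of 57.3, 52.8, 53.2 and 54.7 in male KO mice, with 1 male WT mouse above 3 of the male KO mice. In females it had 46.6, 23.8, 33.9 and 42.1 in WT and 74.2, 58.6, 43.1 and 58.2 in KO mice. The log2 fold change was 0.47 in males (SE 0.18, adjusted p = 0.232) and 0.69 in females (SE 0.24, adjusted p = 0.238). For the mean over both sexes it was 0.58 (SE 0.15), and the adjusted p of 0.0539 missed the threshold.

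**Figure D2:**
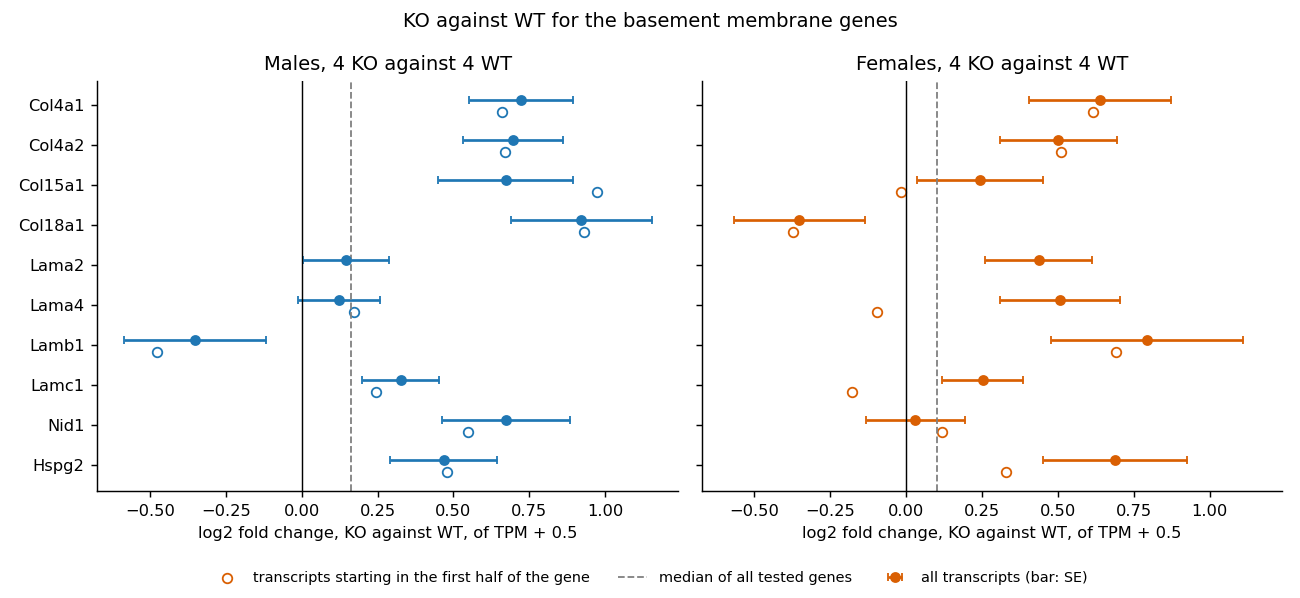
Log2 fold change of TPM + 0.5, KO against WT (horizontal axes), for each gene in males and females, with SE bars (filled points, 4 against 4 mice), the value from transcripts that start within the first 50% of the gene (open points; none for Lama2, which fell under the TPM minimum) and the median of all tested genes (dashed line, 0.16 in males and 0.10 in females). Col18a1 and Lamb1 change sides between the sexes, and the open points of Lama4, Lamc1 and Hspg2 lie left of the filled ones in females.

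Whether the KO effect differed between females and males was tested, as female minus male, by an interaction over all 16 libraries. It passed the adjusted threshold for 0 of the 10 genes and for 0 of the 12210 genes tested. Of the 10, 1 was higher at an unadjusted p under 0.05, beside 2.51% of all genes, and 2 were lower, beside 11.7%. For Col18a1 the difference was -1.27 (SE 0.33, unadjusted p = 0.00172, adjusted p = 0.215), for Lamb1 it was 1.14 (SE 0.42, unadjusted p = 0.0158, adjusted p = 0.263), and for Nid1 it was -0.64 (SE 0.28, unadjusted p = 0.0334, adjusted p = 0.309). For Col4a1 it was -0.08, with a 95% confidence interval from -0.72 to 0.55, and for Col4a2 it was -0.19, with an interval from -0.75 to 0.36.

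The deposited values are per transcript, and each of the 10 genes has short annotated transcripts that start in the last 50% of the gene beside full-length ones. Averaged over the 10 genes, such late-starting transcripts took 26.4% ± 2.79 (SD, n = 4) of a gene's TPM in female WT mice and 35.2% ± 2.75 in female KO mice, and the groups did not overlap (exact permutation test, p = 0.0286). In males the shares were 28.7% ± 4.45 in WT and 29.9% ± 3.38 in KO mice (exact p = 0.714). The same share over 2780 genes that have late-starting transcripts was 29.6% ± 0.893 in female WT and 34.1% ± 2.60 in female KO mice, also without overlap (exact p = 0.0286), and 30.6% ± 2.18 in male WT and 29.5% ± 1.26 in male KO mice (exact p = 0.457). The higher share in female KO mice was thus also present in the mean over these 2780 genes.

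Lama4-201, the full-length transcript, had a TPM of 14.2, 14.3, 13.3 and 17.1 in female WT and of 15.2, 13.3, 14.9 and 11.9 in female KO mice. Lama4-207, a retained-intron transcript that starts 97.0% of the way along the gene, had 9.05, 5.28, 7.73 and 4.88 in female WT and 29.9, 12.4, 18.02 and 12.02 in female KO mice. The groups overlapped for the full-length transcript and did not for the short one. The share of Lama4-201 in the gene's TPM was 68.0% ± 7.03 in female WT and 45.1% ± 8.00 in female KO mice (SD, n = 4, exact p = 0.0286, adjusted p = 0.214 over 30 such tests).

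Lamc1 showed the same pattern. Its full-length transcript Lamc1-201 had a TPM of 11.8, 11.6, 13.5 and 14.4 in female WT and of 10.8, 12.1, 11.07 and 11.03 in female KO mice, while Lamc1-204, which starts 91.0% of the way along the gene, had a mean TPM of 0.634 ± 0.734 in WT and 6.35 ± 2.13 in KO mice. The share of Lamc1-201 was 84.8% ± 3.43 in female WT and 62.5% ± 7.54 in female KO mice (exact p = 0.0286, adjusted p = 0.214). For Hspg2, the short Hspg2-202 at the end of the gene took 27.9% ± 15.8 in female WT and 44.6% ± 4.44 in female KO mice (exact p = 0.0571, adjusted p = 0.343). Its share was 41.5, 34.4, 30.5 and 5.11% in the female WT mice, and without female WT 4 the difference was 9.07 in place of 16.7 percentage points. For Lama2, the late-starting Lama2-208 took a larger share in KO mice of both sexes, 81.9% ± 2.23 against 86.9% ± 1.04 in males and 74.0% ± 7.12 against 87.3% ± 2.47 in females (exact p = 0.0286 and adjusted p = 0.214 in each). None of the 30 tests of shares passed the adjusted threshold, and 4 were at the smallest p.

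With only transcripts that start within the first 50% of their gene, a setting added after the data were seen, the female log2 fold change was -0.10 for Lama4, -0.18 for Lamc1, -0.02 for Col15a1 and 0.33 for Hspg2. For Col4a1 it was 0.62, for Col4a2 0.51 and for Lamb1 0.69. The values of Col15a1 and Hspg2 include female WT 4, whose library stood apart. With these transcripts Col15a1 had a TPM of 8.45, 7.43, 11.8 and 15.1 in female WT mice, the last in female WT 4. Hspg2 had 27.3, 15.6, 23.6 and 39.9 in the same order. The female median over the 9 genes that could be tested was 0.12, beside 0.07 for all genes tested in the same way, and 3 of the 9 were higher at an unadjusted p under 0.05, beside 10.3% of all genes. The male median was 0.55, beside 0.17, and 6 of the 9 were higher at an unadjusted p under 0.05, beside 19.6%. For the mean over both sexes Col4a1 (0.64, adjusted p = 0.0258) and Col4a2 (0.59, adjusted p = 0.0288) passed the threshold here too, beside 4.62% of the 11718 genes tested. The interaction of Col18a1 was -1.30 (adjusted p = 0.171) and that of Lamb1 was 1.17 (adjusted p = 0.231). Lama2 fell under the minimum TPM and was not fitted, but its early-starting transcript Lama2-201 had a mean TPM of 0.467 ± 0.0920 in male WT and 0.368 ± 0.0627 in male KO mice, and of 0.587 ± 0.114 in female WT and 0.391 ± 0.0763 in female KO mice (SD, n = 4). These means were lower in KO mice, with overlapping groups, where the fold change of all Lama2 transcripts was above 0 in both sexes. What gives rise to the difference in late-starting transcripts was not tested.

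**Figure D3:**
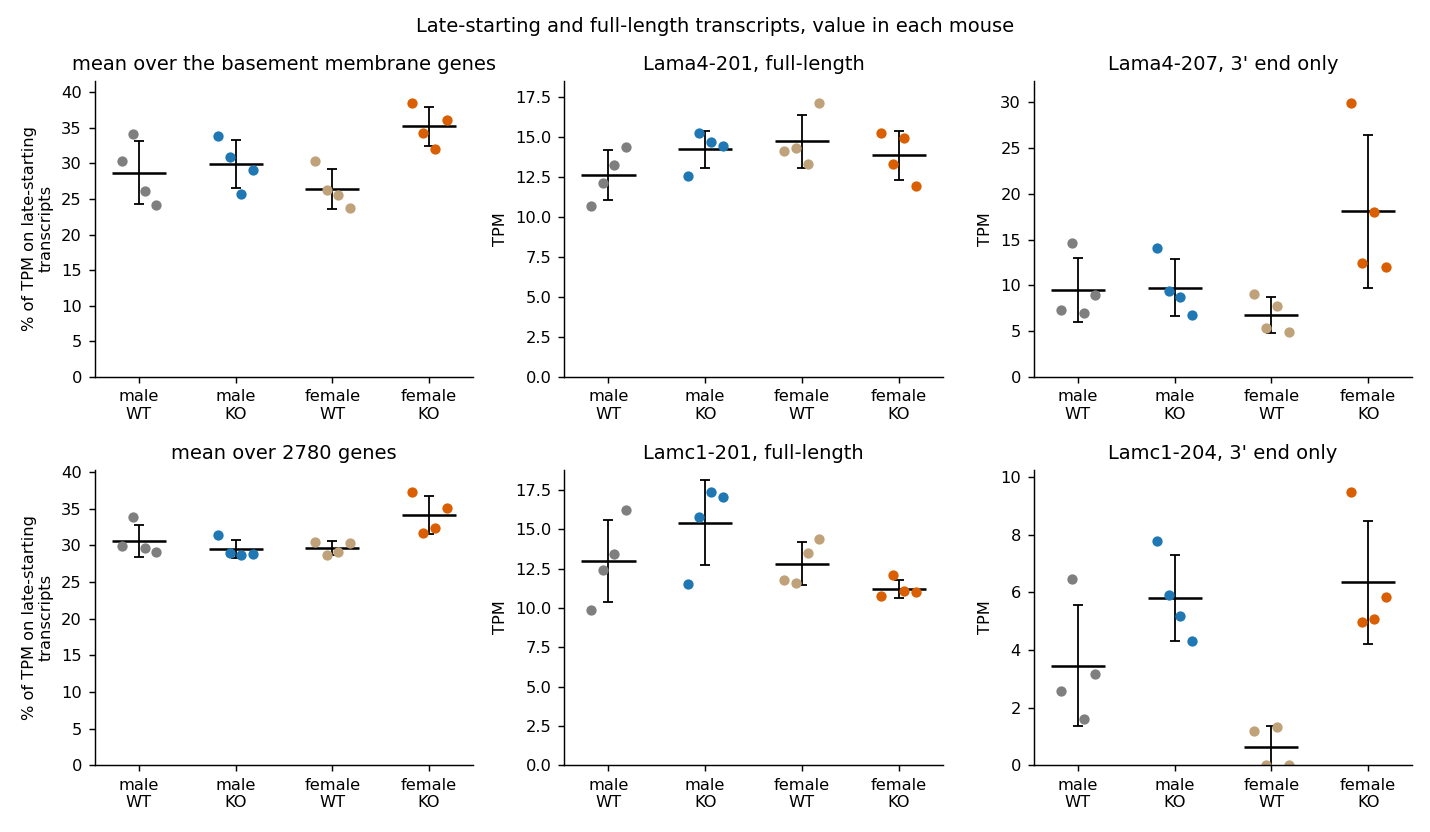
Share of TPM on transcripts that start in the last 50% of their gene (left, % per mouse, mean over the 10 genes and over 2780 genes) and TPM of the full-length and 3′-end transcripts of Lama4 and Lamc1 (middle and right), with 1 point per mouse, a bar at the mean and SD as error bars (n = 4). Female KO mice are above female WT mice in both shares and in both 3′-end transcripts, and overlap them in the full-length Lama4-201.

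Ratios of TPM between chains within a library do not depend on how the library was scaled. With all transcripts summed, Col4a1 and Col4a2 had a ratio of 1.63 to 2.15 over all 16 mice, a coefficient of variation of 8.12%. The mean ratio was 1.76 ± 0.0535 in male WT, 1.79 ± 0.128 in male KO, 1.88 ± 0.111 in female WT and 2.06 ± 0.105 in female KO mice (SD, n = 4). Its level depended on the transcripts used. With the most abundant transcript of each gene it was 0.736 to 1.14, a coefficient of variation of 13.1%. With protein-coding transcripts it was 1.20 to 1.83, a coefficient of variation of 12.5%. The chains Lamb1 and Lamc1 had a ratio of 0.214 to 1.92, a coefficient of variation of 55.8%. Lamb1 is not the only partner of Lamc1. The beta chain Lamb2 had a mean TPM of 32.4 over the 16 libraries, beside 14.4 for Lamb1, and its ratio to Lamc1 was not taken. The ratio Lamb1/Lamc1 was 0.625 ± 0.0534 in male WT and 0.401 ± 0.131 in male KO mice, all 4 of which were below all WT mice (exact p = 0.0286, adjusted p = 0.294 over 24 tests of ratios). In females it was 0.962 ± 0.465 in WT and 1.35 ± 0.405 in KO mice, which overlapped (exact p = 0.229). The ratio Col4a1/Lamc1 was 5.11 ± 0.632 in male WT and 6.67 ± 0.237 in male KO mice, again without overlap (exact p = 0.0286, adjusted p = 0.294). None of the 24 tests passed the adjusted threshold, and with only the most abundant transcript of each gene the exact p in males was 0.0857 for Lamb1/Lamc1 and 0.143 for Col4a1/Lamc1.

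**Figure D4:**
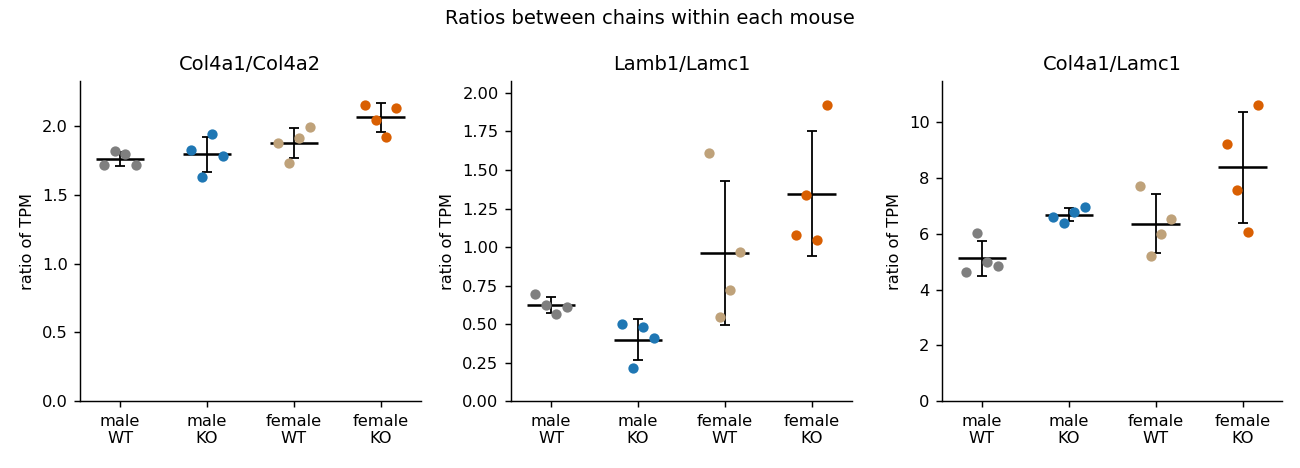
Ratio of TPM between pairs of chains within each mouse (vertical axes, from 0) in the 4 groups, with 1 point per mouse, a bar at the mean and SD as error bars (n = 4). All transcripts of each gene are summed. Col4a1/Col4a2 stays between 1.63 and 2.15, and Lamb1/Lamc1 spans 0.214 to 1.92. The male KO mice lie below the male WT mice for Lamb1/Lamc1 and above them for Col4a1/Lamc1.

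How the genes varied from mouse to mouse was described by correlation of log2(TPM + 0.5) over the 16 libraries after the mean of each group was subtracted. Among 7585 other genes whose mean TPM was 5 or more, Col4a1 and Col4a2 were each the gene most like the other, with r = 0.974 and Spearman's rho = 0.944 (permutation p = 2e-05 for each, the smallest that 100000 resamples can give, adjusted p = 4e-05 over 4 tests). This test takes no account of the scaling that all genes of a library share. It also shuffled the values over all 16 mice after the group means were subtracted. Such values are not fully interchangeable, so its p can be too small. Without the 2 mice farthest from the median r was 0.964, and it was 0.953 within males and 0.996 within females. For Lamb1 and Lamc1 r was 0.165 (permutation p = 0.54, adjusted p = 0.59) and rho was 0.147 (permutation p = 0.59, adjusted p = 0.59), and without the 2 farthest mice r was 0.01. Within males this r was 0.227 and within females 0.121.

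As descriptions with no test, Hspg2 went with Col4a1 (r = 0.87), Lamc1 with Col15a1 (r = 0.858) and Nid1 with Col18a1 (r = 0.779). Other genes were more alike. Among all genes ranked by r, Col4a1 had rank 183 for Hspg2, Col15a1 rank 9 for Lamc1 and Col18a1 rank 40 for Nid1. Col18a1 and Lamb1 were least like the mean of the other 9 genes, with r of 0.39 and 0.379, and between them r was -0.02. Of 7585 genes outside the list, 49.0% and 53.2% had an r no higher with the same 2 means. The 5 genes outside the list whose pattern was most like the mean of the 10 genes were Tgfb1i1 (r = 0.960), Gtpbp2 (r = 0.960), Rasip1 (r = 0.958), Gpr4 (r = 0.954) and Hdgfl2 (r = 0.941), each over 16 libraries. All these values share the same libraries and the same scaling.

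**Figure D5:**
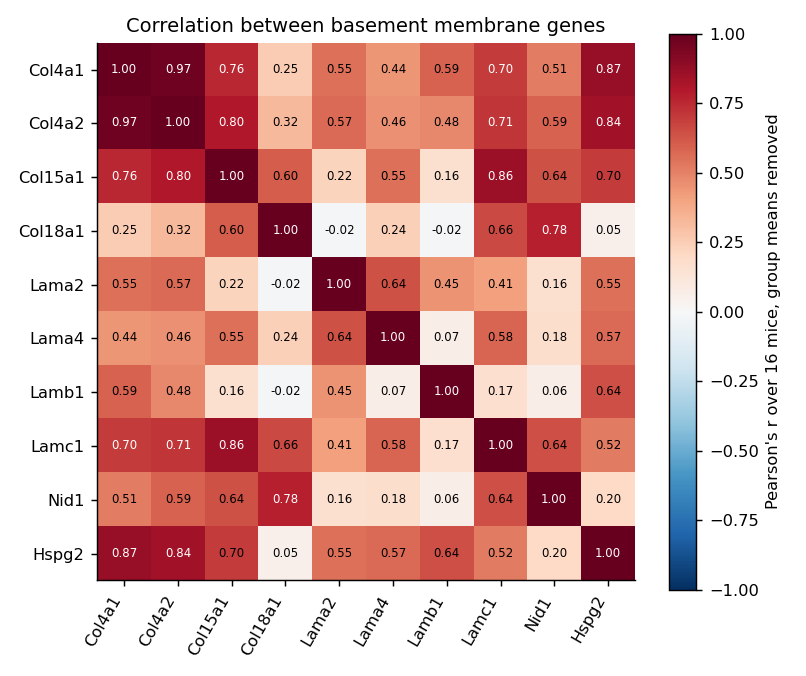
Pearson's r between each pair of the 10 genes over 16 mice, with the mean of each group subtracted (colour scale from -1 to 1, value printed in each cell). Col4a1 and Col4a2 have the highest value, 0.974, and the rows of Col18a1 and Lamb1 hold the values nearest to 0.

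Other genes of the pathway were taken from lists by function. Of 12 further collagen and laminin chains of basement membranes, 5 were above the TPM minimum over all libraries. In the mean over both sexes 2 of these rose past the adjusted threshold, beside 2.95% of all genes tested. They were the laminin chains Lama5 (0.75, SE 0.19, adjusted p = 0.0472) and Lamb2 (0.56, SE 0.14, adjusted p = 0.0497). Lamb2 had a TPM of 18.9, 32.7, 25.6 and 32.9 in male WT and of 34.1, 39.9, 43.4 and 34.0 in male KO mice, and of 30.8, 18.8, 23.3 and 27.4 in female WT and 51.6, 32.0, 32.4 and 41.0 in female KO mice. Neither pair of groups overlapped, beside 9.54% of all genes tested in males and 4.9% in females with KO higher and no overlap. The beta chain Lamb1 thus differed from Lamb2 in the sign of its male value, which was 0.48 (SE 0.18, adjusted p = 0.233) for Lamb2. The male value of Lamb1 was -0.35 (unadjusted p = 0.17), and -0.11 without male KO 2.

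Of 15 further linkers and associated glycoproteins, 10 were tested and 2 rose in the mean over both sexes, beside 2.95% of all genes tested. These were Sparc, a matricellular protein that binds collagen IV (0.42, SE 0.10, adjusted p = 0.0341), and Vwa1, a perlecan-binding protein (0.56, SE 0.12, adjusted p = 0.0313). Of 13 cell receptors 11 were tested, and beside the same share of all genes 1 rose, the laminin alpha5 receptor Bcam (0.66, SE 0.15, adjusted p = 0.0347). Of 11 enzymes and chaperones of collagen assembly and crosslinking 11 were tested and 0 passed the threshold, with 7 higher and 0 lower at an unadjusted p under 0.05, beside the shares of all genes given above. No gene of these lists was lower past the adjusted threshold. The calls were not stable to single libraries, since each of the 5 genes lost its call with between 8 and 11 of the 16 libraries left out one at a time, with adjusted p-values up to 0.108. With early-starting transcripts alone Lama5 had 0.55 (adjusted p = 0.0785), and the other 4 passed the threshold.

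Within each sex none of these genes passed the adjusted threshold. The smallest p-values in males were those of Sparc (0.57, adjusted p = 0.174), the nidogen Nid2 (0.74, adjusted p = 0.216) and Egflam, which encodes pikachurin (0.39, adjusted p = 0.225). In females they were those of Bcam (0.83), Vwa1 (0.70) and Lama5 (1.04), each with an adjusted p of 0.231. Each had all 4 KO mice above all WT mice, beside 4.9% of all genes tested in females. For the difference between the sexes the smallest p-values were those of the dystroglycan gene Dag1 (-0.89, SE 0.28, adjusted p = 0.218), Mia3, which exports collagen from the endoplasmic reticulum (-0.27, adjusted p = 0.413), and the collagen receptor Ddr1 (-0.44, adjusted p = 0.469). The median log2 fold change of the tested genes in males and females was 0.39 and 0.63 for the collagen and laminin chains, 0.33 and 0.25 for the linkers, 0.35 and 0.44 for assembly and 0.28 and 0.07 for the receptors.

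Among WT mice, females and males did not differ in any of the 10 genes at an adjusted or an unadjusted p under 0.05. Of the 12210 genes tested, 0.0655% passed the adjusted threshold, and 1.56% were higher and 3.09% lower in females at the unadjusted one. The median over the 10 genes was 0.09 for female against male WT mice, beside -0.05 for all genes. The smallest p was that of Col15a1, with a log2 difference of 0.45 (SE 0.23, unadjusted p = 0.0673) and a 95% confidence interval from -0.04 to 0.93, and it was 0.27 without female WT 4. Of the other lists the smallest p-values were those of the calcium-binding glycoprotein Smoc1 (0.49, adjusted p = 0.621), the integrin chain Itga3 (0.33, adjusted p = 0.958) and Egflam (0.22, adjusted p = 0.958).

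Summed markers of cell types are given for the same comparisons, and the lists did not all move together. The summed TPM of 12 endothelial markers ranged from 310.2 to 613.2 in male WT and from 502.8 to 584.9 in male KO mice, and from 282.9 to 453.3 in female WT and from 480.1 to 982.2 in female KO mice. At an unadjusted p under 0.05, 4 of 12 were higher in male KO and 10 of 12 in female KO mice, and these and the counts of markers below stand beside 17.7% of all genes tested in males and 11.6% in females. For 10 mural markers the sums were 160.4 to 239.0 and 235.8 to 282.8 in male WT and KO mice, and 166.5 to 194.6 and 214.6 to 324.3 in female WT and KO mice, with 7 and 6 of 10 higher in male and female KO mice.

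For 10 fibroblast markers the sums were 86.5 to 162.9 in male WT and 200.5 to 223.0 in male KO mice, and 126.6 to 181.9 in female WT and 126.8 to 211.7 in female KO mice. For 11 macrophage markers they were 47.8 to 93.0 and 120.0 to 174.9 in males, and 58.2 to 122.4 and 78.3 to 115.9 in females. Of the fibroblast markers 6 of 8 tested, and of the macrophage markers 8 of 10 tested, were higher in male KO mice at an unadjusted p under 0.05, against 1 and 1 in female KO mice. The sums of 10 brown adipocyte markers were 14572 to 19149 and 16076 to 17209 in male WT and KO mice, and 11246 to 15569 and 12601 to 18301 in female WT and KO mice. Of these 10 markers, 1 was higher in male KO and 0 in female KO mice at an unadjusted p under 0.05. Skeletal muscle markers, a sign of neighbouring tissue, summed to 19.1 to 2040.2 and 11.7 to 4566 TPM in male WT and KO mice, and to 2.18 to 1354 and 6.32 to 4032 TPM in female WT and KO mice. Schwann cell markers summed to 153.1 to 204.9 and 174.4 to 217.1 TPM in males, and to 113.04 to 172.3 and 67.5 to 128.8 TPM in females. Of these 7 markers, 3 were above the TPM minimum in males and 4 in females. Lymphocyte markers summed to 14.6 to 40.7 TPM (median 22.6) in male WT and 20.8 to 99.5 TPM (median 64.4) in male KO mice, and to 7.51 to 34.2 and 7.36 to 23.3 TPM in females. Only 1 of these 7 markers was above the TPM minimum in either sex, so that the male sums rest mostly on 1 gene. No marker was at 0 in every library, and the part of these cells in the values of the basement membrane genes was not tested.

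The library names carry prefixes that are spread unevenly over the groups. Within the male libraries of prefix 9 (2 WT and 3 KO) the median log2 difference of the 10 genes was 0.58, beside 0.14 for all genes, and 9 of the 10 were higher in KO mice. Within the female libraries of prefix 10 (1 WT and 1 KO) it was 0.61, beside 0.00, with 9 higher, and within those of prefix 8b (3 WT and 1 KO) it was 0.21, beside 0.03, with 7 higher. In all 3 of these sets Col4a1 and Col4a2 were higher in KO than in WT mice, by 0.77 and 0.75, by 0.85 and 0.65, and by 0.23 and 0.19 on the log2 scale.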

How the data were processed

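BAT was taken from 16 mice and sequenced by the authors as stranded mRNA libraries with single-end reads, which they quantified with kallisto 0.46.2, and GRCm39 is the build named in the submitters' processing notes. The deposited values are TPM per transcript, which the authors' tool divides by transcript length and scales to a fixed sum. The annotation release is not given in the sources used here, and the authors' own test needs counts, so it was not run.

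Transcript identifiers were matched to GENCODE mouse M21 (GRCm38) without their version. Of 137438, 135051 matched, and TPM were summed per gene symbol. Groups came from the labels, which number the samples of a group and do not describe litters or batches, so p-values measure the spread between these samples. The basement membrane genes and all lists were chosen with earlier results of these data known.

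Genes at a mean TPM of 1 or more were fitted as log2(TPM + 0.5) with limma 3.58.1 in R 4.3.3 (eBayes with a trend). P-values, two-sided, were adjusted over all genes tested by the Benjamini-Hochberg method at 0.05, and each adjusted or unadjusted p of a fold change is from limma. Fold changes understate those of low genes. The spread is that of 4 mice per group. Ratios, transcript shares and Gdf15 were compared by exact two-sided permutation tests in scipy 1.17.1. The fits were tested on simulated data with known changes.

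Named beside the 10 genes were Gdf15, per comparison up to 5 genes of the other lists past the adjusted threshold or else the 3 with the smallest p, and the 5 genes most correlated with the mean of the 10. Transcripts that start in the last 50% of their gene's span were called late-starting, and their mean share was taken over genes at a mean TPM of 5 or more with a late share of 5 to 95%. Alternatives covered the pseudocount, the TPM minimum, scaling, mitochondrial transcripts, the trend, the library-name prefix, the replicate number as a block, transcript sets and each library left out. Promoter windows are those of RefSeq for GRCm38.p6, found by symbol.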

Additional observations from a re-analysis of the deposited data

Results flagged for a closer look

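The Col18a1 TPM of female WT 4, at 9.09, lay far above those of the other female WT mice, which had 4.71, 4.99 and 5.14. The gap to the nearest of the others was 0.900 of the range of the group, above the critical value of 0.829 for 4 samples in Dixon's test. In this library 17.7% of TPM fell on identifiers that matched no gene, against 0.333 to 0.480% in the other 15, and the part of that in the value was not tested. This group was the only one of 40 groups of 4 mice (10 genes in 4 groups) to exceed the critical value, and chance exceeds it in about 1 in 20 groups. Without this mouse the female log2 fold change of Col18a1 was -0.15 in place of -0.35.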

How the results depend on the processing

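Of the 10 genes, 0 passed the adjusted threshold within either sex, in the interaction or between WT mice of both sexes under any alternative, with each library left out included. For the mean over both sexes, the 2 calls (Col4a1 and Col4a2) became 0 with no TPM minimum, with the replicate block and with the prefix as covariate, and ranged from 0 to 4 as single libraries were left out. The number of genes of the whole table past the threshold in that comparison, 360 at first, was 54 with no TPM minimum, 177 with a minimum of 5, 543 without mitochondrial transcripts, 60 with the replicate block, 12 with the prefix, 720 with protein-coding transcripts and 541 with early-starting transcripts (both added after the data were seen), and 31 to 1055 with single libraries left out.

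In males the 1 gene became 2 with a pseudocount of 0.1 or early-starting transcripts, 0 with no TPM minimum or the replicate block, 3 with scaling by the median of ratios, 12 without mitochondrial transcripts, 6 with the prefix, 38 with all 16 libraries in one fit, 20 with protein-coding transcripts and 0 to 5 with single libraries left out. In females the 0 genes became 1 with the replicate block, 8 with the prefix, 5 with all 16 libraries in one fit and 0 to 9 with single libraries left out. For the interaction 0 became 1 without the trend and 0 to 3 with single libraries left out, and for WT mice of both sexes 8 became 14 with scaling by the median of ratios. The replicate numbers did not pair the mice, since the deviations of same-numbered WT and KO mice correlated between -0.0855 and 0.35 in males and between -0.109 and 0.146 in females, and those of all same-numbered pairs over the 4 groups between -0.211 and 0.349, so the block has no known meaning. Why these counts moved was not tested.

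With early-starting transcripts the female median of the 9 genes tested was 0.12, and 0.049 above the median of all genes. In females these transcripts gave -0.017 for Col15a1, -0.096 for Lama4 and -0.18 for Lamc1, and protein-coding transcripts gave -0.086 for Lama4. Nid1 in females was -0.066 with scaling by the median of ratios, -0.12 without mitochondrial transcripts and -0.039 to 0.13 with single libraries left out. Lama4 in males was -0.043 with scaling by the median of ratios. In the interaction, Lama4 was -0.26 and Hspg2 -0.15 with protein-coding transcripts, -0.27 and -0.15 with early-starting ones, Lamc1 was 0.011 with the prefix and -0.15 to 0.016 with single libraries left out, and Col4a1 ranged from -0.24 to 0.070. Between WT mice, Lama4 was 0.024 with scaling by the median of ratios, 0.011 without mitochondrial transcripts, 0.22 with protein-coding and 0.23 with early-starting transcripts, and Hspg2 was 0.14 with the prefix and 0.066 with either set of transcripts. With single libraries left out these WT differences ranged from -0.00091 to 0.30 for Col4a1, -0.079 to 0.17 for Col4a2, -0.11 to 0.081 for Lama4 and -0.27 to 0.045 for Hspg2.

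The log2 difference of Col4a1/Col4a2 in females was -0.088 with the most abundant transcripts, and in males it ranged from -0.015 to 0.069 with single libraries left out. In males the differences in share, in percentage points, then ranged from -7.39 to 1.504 for Col18a1-202, -2.06 to 6.46 for Lama4-201 and -3.52 to 2.28 for Hspg2-202. The difference of Gdf15 in males ranged from -1.84 to -0.693 TPM, and 3 against 4 mice cannot reach 0.05 in the exact test. Reads per library are unknown, so no detection limit was set.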
